A study of Mus musculus with 9 samples.

Results

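Collagens are the main fibrous proteins of the extracellular matrix, and each collagen molecule is a triple helix of chains that are encoded by separate genes. The 44 members described here are all genes of the deposited tables whose symbol is Col, a number, the letter a and a number, with nothing after. They are 44 of 40879 rows, they fall into 27 collagen types by the first number, and all 44 matched 1 protein-coding gene of the GENCODE M21 annotation by symbol. RNA came from the spinal cord of male mice in 3 groups of 3 libraries: sham, SNI, and SNI+LDN193189. The labels do not spell out SNI, and the study's title places the work in neuropathic pain and names ACVR1, a type I receptor for bone morphogenetic proteins; LDN193189 is a small-molecule inhibitor of such receptors. The labels give no strain, age, cord segment or side, time after surgery, dose or vehicle, nor whether a library is 1 animal or a pool, so that p-values measure the spread between these libraries. The sham and SNI groups are named without the compound, and whether they received a vehicle is not stated. The protocol text speaks of cell lines, whereas the tissue label is spinal cord, and the tissue was therefore checked on its markers. The tables name their columns by a letter and a number only, and each direction between sham and SNI rests on S columns being sham. Gene positions are those of GENCODE M21 on GRCm38.

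Collagen chains are made in the endoplasmic reticulum, where prolines and lysines are hydroxylated and the helix folds with the help of dedicated chaperones, and they are trimmed and crosslinked outside the cell. Fibrillar types form the tensile fibrils of meninges, nerve sheaths, bone and tendon, type IV forms the network of basement membranes around vessels and at the surface of the cord, and the fibril-associated types coat fibrils. The neural tissue of the cord itself holds little fibrillar collagen, most of which is made by fibroblasts of the meninges and of the roots, by perivascular cells and by Schwann cells, whereas several transmembrane and fibril-associated collagens are made by neurons or glia.

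Totals ran from 33432776 to 37190467 counts. Cord neuron markers summed to 1010 to 1170 FPKM and oligodendrocyte markers to 2630 to 3180 in the 9 libraries, on the deposited scale of fragments per unit of gene length and of library total (FPKM). Of the astrocyte markers Aqp4, and of the microglial markers P2ry12, was listed at 0 throughout, while the lists they belong to summed to 296 to 365 and 64.3 to 87.3. The libraries differed in markers of tissue around the cord, and the 3 sham libraries stood apart in different ways. Skeletal muscle markers summed to 523 in sham replicate 1 and to between 3.72 and 14.3 in the other 8. Sensory ganglion markers summed to 9.93 in sham replicate 2 and to between 1.09 and 2.14 elsewhere. The 10 Schwann cell and nerve root markers summed to 256, 661 and 2040 FPKM in sham, 59.2, 153 and 266 in SNI and 579, 254 and 214 in SNI+LDN193189. The 12 markers of meningeal fibroblasts, from which collagens had been left out and of which Ogn was listed at 0, summed to 44.0, 92.3 and 185 FPKM in sham, 33.1, 33 and 69.0 in SNI and 65.4, 77.3 and 52.0 in SNI+LDN193189. Both sums were highest in sham replicate 3. So were the sums of mural cell markers, 111 against 67.6 to 86.7 in the other 8 libraries, and of endothelial markers, 138 against 105 to 118. Values of single libraries are given throughout in the order of replicates 1, 2 and 3.

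Collagen RNA as a whole was spread over many chains. Summed over the 44 members it came to 99.0, 106 and 221 FPKM in sham, 92.9, 80.8 and 95.6 in SNI and 100, 84.2 and 82.5 in SNI+LDN193189. Sham replicate 3 was above every other library, and the other 8 lay between 80.8 and 106 with a median of 94.2. The median level of a chain over the 9 libraries was highest for Col1a2 at 10.0 FPKM, followed by Col4a2 at 6.31, Col25a1 at 5.70, Col11a1 at 5.56 and Col11a2 at 5.48. In the mean, which sham replicate 3 draws upwards, Col1a2 stood at 15.9 FPKM and Col1a1 at 8.68. Of the 44 members, 1 had a mean of at least 10 FPKM, 9 of at least 5 and 26 of at least 1, and 18 lay below 1. The lowest 4 had means below 0.1 FPKM. They were Col6a5, an alternative chain of type VI, at 0.0878, Col4a3, a chain of kidney basement membranes, at 0.0293, Col17a1, the transmembrane collagen of skin hemidesmosomes, at 0.0219, and Col10a1, the collagen of hypertrophic cartilage. Col10a1 was listed at 0 in all 9 libraries, its exons share 18 bases with Nt5dc1 on the opposite strand, and no level is read from it.

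**Figure D1:**
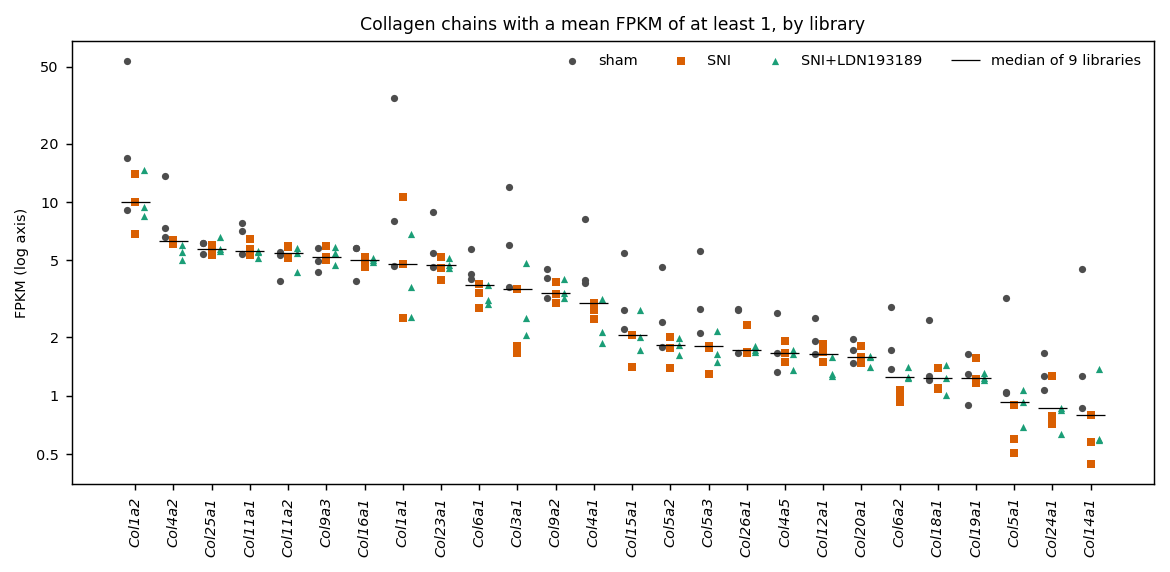
FPKM on a log axis of the 26 collagen chains with a mean of at least 1, ordered by their median over the 9 libraries (black lines), with 1 point per library coloured by group. Col1a2 leads with a median of 10.0, and the sham point far above the others in Col1a2, Col1a1, Col3a1, Col5a1 and Col14a1 is sham replicate 3.

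The share of each type was read within a library, so that it does not depend on the library total. Type I, Col1a1 and Col1a2 together, took 14, 23.2 and 39.8% in sham, 26.4, 11.6 and 15.5 in SNI and 21.5, 15.6 and 13.4 in SNI+LDN193189 of the summed collagen FPKM. The type I share was highest in sham replicate 3 and lowest in SNI replicate 2, and the groups overlapped. Type IV took between 10.7 and 13.5% in every library, and sham replicate 3, at 11.5%, did not stand apart. Type IX summed to between 8.61 and 10.6 FPKM and had the smallest coefficient of variation of a type with several chains, 7.57%, against 99.6% for type I. Its share was therefore lowest, 4.65%, in sham replicate 3.

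**Figure D2:**
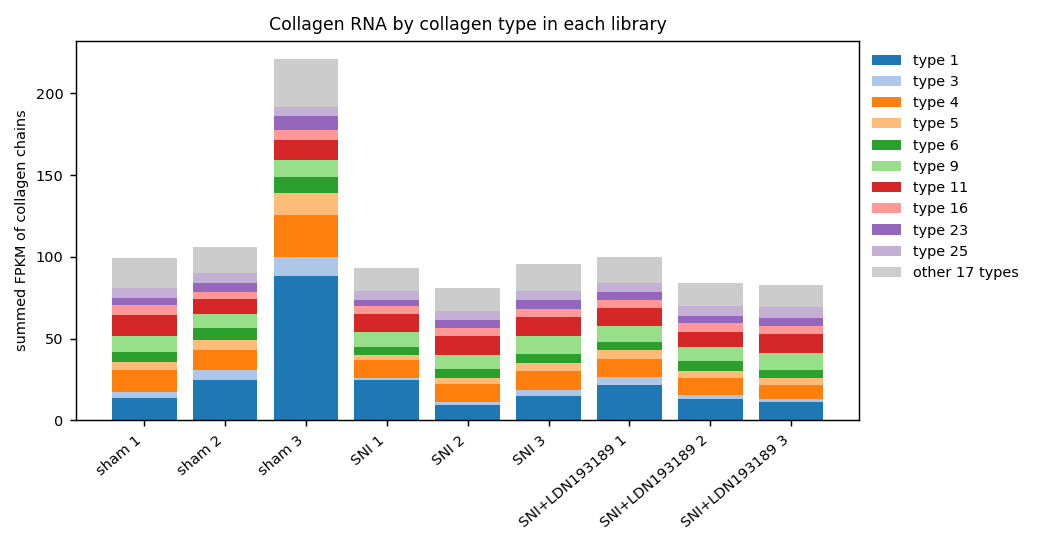
Summed FPKM of collagen chains in each library, stacked by collagen type, with the 17 types of lower level in grey. The bar of sham replicate 3 reaches 221 against 80.8 to 106 in the other 8 libraries, and type I, in dark blue, makes up 88.1 of it.

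Of the 42 members that passed the low-count filter, 29 (69.0%) had their highest FPKM in sham replicate 3, where 21.2% of all 18245 genes tested had theirs. In 16 members (38.1%) sham replicate 3 was more than 1.5 times the next library, against 2.95% of all genes, and in 6 (14.3%) more than 2 times, against 1.28%. These 6 were Col14a1 at 3.30 times, Col1a1 at 3.26, Col1a2 at 3.19, Col5a1 at 2.98, Col28a1 at 2.65 and Col4a1 at 2.08. Sham replicate 1 was highest in 7 members (16.7%), a share that was also 16.7% among all genes; they were Col7a1, Col11a1, Col13a1, Col16a1, Col19a1, Col20a1 and Col27a1. Among the 26 members with a mean of at least 1 FPKM the median coefficient of variation over the 9 libraries was 29.6%, and it was 7.36% among the 13063 tested genes at that level. Without sham replicate 3 the figures were 15.4% and 7.08%. In 7 of the 42 members (16.7%), Col1a2, Col3a1, Col5a3, Col8a2, Col14a1, Col15a1 and Col28a1, the 3 highest libraries were the same as for the nerve root marker sum, namely sham replicates 3 and 2 and SNI+LDN193189 replicate 1. This held for 2.61% of all genes tested. The fibroblast marker sum was highest in sham replicates 3 and 2 and SNI+LDN193189 replicate 2. The same 3 libraries were highest in 2 members (4.76%), Col4a6 and Col6a2, against 1.3% of all genes. These counts describe 9 libraries and carry no test.

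**Figure D3:**
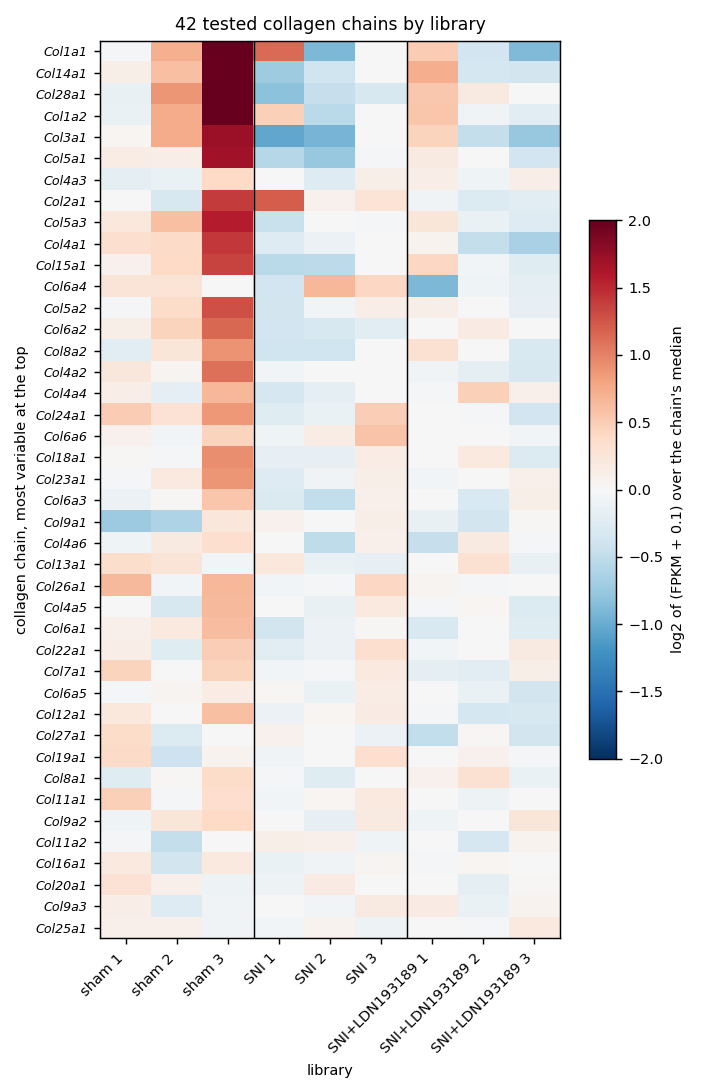
Each row is 1 of the 42 tested collagen chains, ordered by coefficient of variation, and each column a library; colour is the log2 ratio of FPKM + 0.1 to the chain's own median, limited to 2 in either direction. The column of sham replicate 3 is red down to the middle of the plot, and the rows at the bottom, Col25a1, Col9a3, Col20a1, Col16a1 and Col11a2, are pale in every library.

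Promoter sequences are shown for both ends of that order, to let the most variable and the steadiest chains be compared. Of the 44 members, 35 matched a RefSeq promoter entry on GRCm38.p6 by symbol, and for 20 of them the 150 bases before RefSeq's start site lay outside every annotated exon. The members without an entry were Col1a1, Col2a1, Col4a3, Col5a2, Col9a3, Col12a1, Col14a1, Col22a1 and Col26a1. Among the 20, the stretches are printed for the 3 most variable and the 3 least variable members with a mean of at least 1 FPKM, written 5′ to 3′ on the strand of the gene. Capitals mark every match to the motif CCAAT, to GGGCGG, the GC box, and to TATAAA, the TATA box, or to the reverse complement of any of them. No matches overlap in these stretches. The stretch of Col25a1 lies inside the gene as GENCODE M21 places it, downstream of the start annotated there, and that of Col11a2 ends before GENCODE's start. The first 3 lines are the variable chains:
Col3a1, chr1:45311388-45311537, plus strand: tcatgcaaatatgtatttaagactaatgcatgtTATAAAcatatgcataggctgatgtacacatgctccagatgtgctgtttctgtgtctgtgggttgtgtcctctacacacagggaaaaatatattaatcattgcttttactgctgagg
Col5a1, chr2:27886275-27886424, plus strand: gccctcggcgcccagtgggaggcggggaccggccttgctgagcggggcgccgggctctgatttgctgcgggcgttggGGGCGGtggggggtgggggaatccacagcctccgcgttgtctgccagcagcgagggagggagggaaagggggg
Col5a3, chr9:20815068-20815217, minus strand: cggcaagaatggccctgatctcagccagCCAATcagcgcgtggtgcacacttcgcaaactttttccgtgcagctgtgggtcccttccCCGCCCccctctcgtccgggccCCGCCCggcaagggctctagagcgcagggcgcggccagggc
The next 3 lines are the steady chains:
Col25a1, chr3:130180695-130180844, plus strand: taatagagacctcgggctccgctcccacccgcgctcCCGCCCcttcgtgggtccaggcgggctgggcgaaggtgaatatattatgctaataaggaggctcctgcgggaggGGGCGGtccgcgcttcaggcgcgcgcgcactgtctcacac
Col11a2, chr17:34038988-34039137, plus strand: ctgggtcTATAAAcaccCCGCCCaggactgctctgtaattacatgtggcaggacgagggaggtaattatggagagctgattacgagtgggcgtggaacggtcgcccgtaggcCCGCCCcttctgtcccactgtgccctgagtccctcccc
Col11a1, chr3:114030390-114030539, plus strand: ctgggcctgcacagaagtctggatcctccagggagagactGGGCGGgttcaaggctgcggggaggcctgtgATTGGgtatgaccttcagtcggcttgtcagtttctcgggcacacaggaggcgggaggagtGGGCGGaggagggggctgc

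GC box matches numbered 0, 1 and 2 in the 3 variable stretches and 2, 2 and 2 in the steady ones, and matches to all 3 motifs numbered 1, 1 and 3 against 2, 3 and 3. The variable Col3a1 held 1 TATA box and neither of the other motifs, and had 37.3% G and C, while Col5a1 held 1 GC box and had 74.7%. The steady Col11a2 held 1 TATA box and 2 GC boxes. Over the first RefSeq entry of all 35 members, a GC box was found in the 150 bases before the start in 19 (54.3%), against 28.6% of the 32851 windows of all genes. CCAAT was found in 7 (20.0%) against 24.5%, and TATAAA in 4 (11.4%) against 7.57%. A match is a run of letters and not a measured binding site.

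Type I had the highest summed FPKM of the 27 types in the mean over the libraries, and its chain Col1a1 had a coefficient of variation of 116%. Type XI was above type I in SNI replicate 2, at 11.6 against 9.4 FPKM, and in SNI+LDN193189 replicate 3, at 11.3 against 11.1. Col1a1 (chr11:94936224-94953042) was found at 4.68, 7.94 and 34.6 FPKM in sham, 10.6, 2.52 and 4.79 in SNI and 6.82, 3.66 and 2.55 in SNI+LDN193189. Its partner Col1a2 (chr6:4504814-4541544) was found at 9.14, 16.8 and 53.5 FPKM in sham, 13.9, 6.87 and 10.0 in SNI and 14.7, 9.47 and 8.52 in SNI+LDN193189. Sham replicate 3 was far above all other libraries in both. The remaining sham libraries lay inside the range of the SNI groups for Col1a1, and for Col1a2 sham replicate 1 lay inside it and sham replicate 2 above it. By edgeR's quasi-likelihood test no comparison of either chain had an unadjusted p under 0.05, while DESeq2 gave one to Col1a2 in SNI against sham and to Col1a1 in SNI+LDN193189 against sham. Without sham replicate 1, edgeR gave one to Col1a2 in both comparisons with sham. The ratio of Col1a1 to Col1a2 ran from 0.300 to 0.761, with a median of 0.474, and was highest in SNI replicate 1. That library also had the second highest sum of cartilage and bone markers, 19.6 FPKM against 25.3 in sham replicate 3 and 10.7 to 13.3 in the other 7. Of this list Bglap, the osteoblast product osteocalcin, stood at 7.35 FPKM in sham replicate 3, 3.02 in SNI replicate 1 and 0.726 or less elsewhere. Bglap2 and Ibsp were also highest in these libraries, and Chad was listed at 0. Other genes of the list did not follow. Dmp1 was lowest in sham replicate 3, at 2.53 FPKM, and Sp7 was highest in SNI+LDN193189 replicate 2, at 1.45. Col2a1, the main fibril chain of cartilage, was found at 0.368, 0.276 and 1.14 FPKM in sham, 0.983, 0.397 and 0.463 in SNI and 0.345, 0.287 and 0.298 in SNI+LDN193189. Like Bglap, Col2a1 was highest in sham replicate 3 and SNI replicate 1. The part of bone or cartilage tissue in these values was not tested.

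Type III and type V chains, which build thin fibrils and set the diameter of type I fibrils, showed a similar spread. Col3a1 (chr1:45311538-45349706), the type III chain, was found at 3.65, 6.00 and 11.9 FPKM in sham, 1.67, 1.81 and 3.55 in SNI and 4.87, 2.52 and 2.06 in SNI+LDN193189. Sham replicate 3 was highest, and all sham libraries lay above all SNI libraries, the closest pair being 3.65 in sham and 3.55 in SNI. The type V chain Col5a1 was found at 1.04, 1.03 and 3.19 FPKM in sham, 0.595, 0.506 and 0.899 in SNI and 1.07, 0.928 and 0.689 in SNI+LDN193189. Its partner Col5a2 was found at 1.78, 2.40 and 4.64 FPKM in sham, 1.39, 1.76 and 2.01 in SNI and 1.99, 1.83 and 1.63 in SNI+LDN193189. Col5a3, the type V chain with the narrowest tissue range, was found at 2.10, 2.80 and 5.58 FPKM in sham, 1.30, 1.81 and 1.77 in SNI and 2.16, 1.64 and 1.5 in SNI+LDN193189. The sham libraries lay above the SNI libraries in Col5a1 and Col5a3 and overlapped with them in Col5a2. Against Col5a2, Col5a3 stood at a ratio of 0.882 to 1.20, the narrowest range among the 15 pairs of chains that were compared, although both chains were highest in sham replicate 3. Within that range the ratio was 1.16 to 1.20 in the sham libraries and 0.882 to 1.09 in the others, a difference that was not tested.

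The type XI chains, which nucleate fibrils in cartilage and are also transcribed in the nervous system, were steady and high. Col11a1 was found at 7.78, 5.42 and 7.08 FPKM in sham, 5.36, 5.72 and 6.41 in SNI and 5.51, 5.17 and 5.56 in SNI+LDN193189. Col11a2 was found at 5.32, 3.92 and 5.51 FPKM in sham, 5.92, 5.88 and 5.16 in SNI and 5.48, 4.34 and 5.78 in SNI+LDN193189. Neither was raised in sham replicate 3 above every other library. The ratio of Col11a1 to Col11a2 was 1.46, 1.38 and 1.29 in sham, 0.905, 0.973 and 1.24 in SNI and 1.01, 1.19 and 0.962 in SNI+LDN193189, higher in the 3 sham libraries than in the other 6, and was not tested. Col24a1, a fibrillar chain known from developing bone, was found at 1.27, 1.07 and 1.66 FPKM in sham, 0.716, 0.782 and 1.26 in SNI and 0.862, 0.846 and 0.635 in SNI+LDN193189. SNI replicate 3 lay inside the sham range, and all SNI+LDN193189 libraries lay below it. Col27a1, the remaining fibrillar chain, had a mean of 0.683 FPKM.

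In the type IV network Col4a1 and Col4a2, the pair found in nearly all basement membranes, led by a wide margin. Col4a1 (chr8:11198423-11312826) was found at 3.82, 3.94 and 8.18 FPKM in sham, 2.49, 2.78 and 3.01 in SNI and 3.17, 2.13 and 1.88 in SNI+LDN193189. Col4a2 (chr8:11312805-11449287) was found at 7.37, 6.58 and 13.7 FPKM in sham, 6.07, 6.31 and 6.35 in SNI and 6.03, 5.55 and 5.04 in SNI+LDN193189. Sham replicate 3 was highest in both, and in both all sham libraries lay above all libraries of the other groups. These genes lie head to head: the annotated start sites, at 11312826 for Col4a1 and 11312805 for Col4a2, are 21 bases apart on opposite strands. The ratio of Col4a1 to Col4a2, both per length, was 0.518, 0.598 and 0.599 in sham, 0.410, 0.441 and 0.475 in SNI and 0.526, 0.384 and 0.374 in SNI+LDN193189. Col4a1 was thus the lower of the pair in every library. Col4a5, the chain of a second basement membrane network, was found at 1.67, 1.32 and 2.67 FPKM in sham, 1.67, 1.5 and 1.92 in SNI and 1.65, 1.72 and 1.36 in SNI+LDN193189, raised in sham replicate 3 alone. Its head-to-head neighbour Col4a6, 1309 bases away between start sites, had a mean of 0.288, and Col4a5 exceeded it by 3.86 to 9.03 times. Col4a4, whose start lies 72 bases from that of Col4a3, had a mean of 0.212. The ratio of Col4a5 to Col4a1 was 0.327 to 0.437 in the sham libraries and 0.521 to 0.810 in the other 6, a difference that was not tested.

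**Figure D4:**
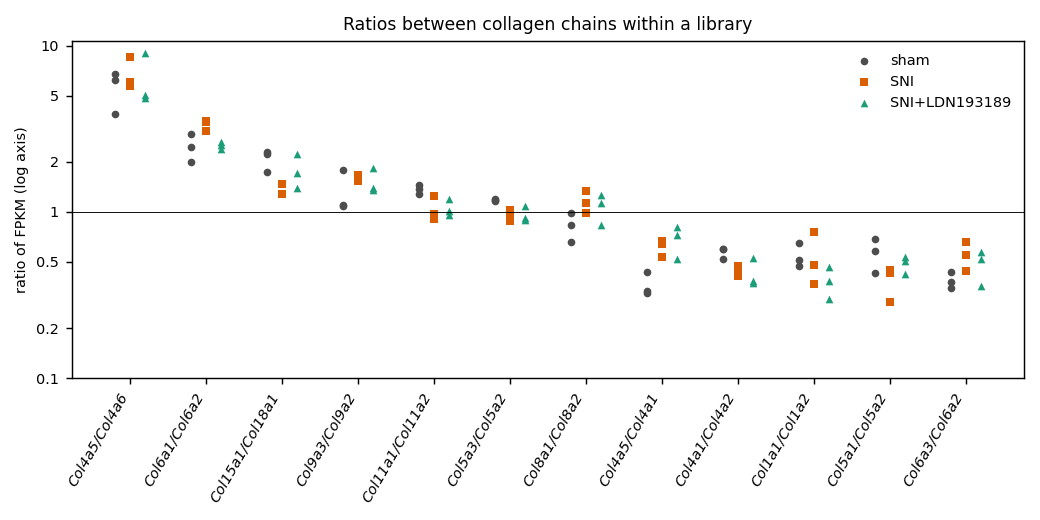
Ratio of FPKM between pairs of collagen chains in each library on a log axis, with 1 point per library coloured by group, for the 12 of 15 pairs whose median ratio was above 0.3. Col4a5/Col4a6 leads with a median of 6.07. The 3 sham points of Col11a1/Col11a2 (1.29 to 1.46) and of Col5a3/Col5a2 (1.16 to 1.20) lie above the other 6, while those of Col4a5/Col4a1 (0.327 to 0.437) lie below.

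Type VI collagen forms beaded filaments between cells and their matrix, and its chains were unequal. Col6a1 (chr10:76708792-76726168) was found at 4.01, 4.27 and 5.72 FPKM in sham, 2.85, 3.41 and 3.78 in SNI and 2.99, 3.71 and 3.13 in SNI+LDN193189. Col6a2 (chr10:76595762-76623630) was found at 1.37, 1.73 and 2.88 FPKM in sham, 0.930, 0.979 and 1.07 in SNI and 1.25, 1.41 and 1.24 in SNI+LDN193189. All sham libraries lay above all SNI libraries in both chains. For Col6a2 the SNI+LDN193189 libraries lay above the SNI libraries, and for Col6a1 these groups overlapped. The large chain Col6a3 had a mean of 0.641 FPKM. The alternative chains Col6a5 and Col6a6 had means of 0.0878 and 0.118, and Col6a4 was found at 0.186, 0.191 and 0.140 FPKM in sham, 0.0836, 0.280 and 0.221 in SNI and 0.0292, 0.127 and 0.109 in SNI+LDN193189. SNI+LDN193189 replicate 1 was the lowest library in Col6a4, with 8 counts.

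Fibril-associated chains divided into steady and variable ones. Col9a3, of the type IX collagen that coats cartilage fibrils, was found at 5.76, 4.36 and 4.96 FPKM in sham, 5.22, 5.04 and 5.95 in SNI and 5.89, 4.73 and 5.46 in SNI+LDN193189. Col9a2 was found at 3.20, 4.04 and 4.52 FPKM in sham, 3.36, 3.03 and 3.87 in SNI and 3.19, 3.39 and 4.02 in SNI+LDN193189. The groups overlapped in both. Col16a1 was found at 5.81, 3.89 and 5.78 FPKM in sham, 4.61, 4.83 and 5.23 in SNI and 4.91, 5.17 and 5.05 in SNI+LDN193189, and all libraries of the SNI groups lay inside the range of the sham libraries. Col20a1 was found at 1.96, 1.72 and 1.47 FPKM in sham, 1.48, 1.80 and 1.59 in SNI and 1.59, 1.40 and 1.61 in SNI+LDN193189. Col19a1, which is made by neurons among other cells, was found at 1.64, 0.894 and 1.29 FPKM in sham, 1.17, 1.22 and 1.57 in SNI and 1.23, 1.31 and 1.21 in SNI+LDN193189, and its sham libraries held both the highest and the lowest value. Col12a1, of dense connective tissue, was found at 1.92, 1.64 and 2.53 FPKM in sham, 1.5, 1.69 and 1.84 in SNI and 1.59, 1.27 and 1.29 in SNI+LDN193189. All SNI+LDN193189 libraries lay below all sham libraries. Col14a1, the other such chain of tendon and fascia, was found at 0.868, 1.26 and 4.52 FPKM in sham, 0.444, 0.575 and 0.793 in SNI and 1.37, 0.597 and 0.594 in SNI+LDN193189. It was 3.30 times the next library in sham replicate 3, and all SNI libraries lay below all sham libraries.

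Col9a1 and Col22a1 were the low members of this class, with means of 0.603 and 0.333 FPKM. Col22a1 is known from tissue junctions such as that of muscle and tendon. In the library with the high muscle markers, sham replicate 1, it stood at 0.352 FPKM, inside the range of 0.247 to 0.477 over the 9 libraries.

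Of the transmembrane chains, Col25a1 (chr3:130131501-130599877), a neuronal collagen whose shed part is found in amyloid plaques, was the steadiest member of all, at 6.15, 6.15 and 5.41 FPKM in sham, 5.49, 5.97 and 5.31 in SNI and 5.70, 5.56 and 6.57 in SNI+LDN193189. Its coefficient of variation was 7.25%, and the groups overlapped. Col23a1 was found at 4.64, 5.47 and 8.84 FPKM in sham, 3.95, 4.54 and 5.18 in SNI and 4.57, 4.75 and 5.12 in SNI+LDN193189, with sham replicate 3 above the rest. Col13a1 had a mean of 0.153. The multiplexins, collagens of the zone between basement membrane and fibrils, were moderate in level. Col15a1 was found at 2.20, 2.76 and 5.45 FPKM in sham, 1.40, 1.41 and 2.07 in SNI and 2.78, 2.00 and 1.73 in SNI+LDN193189. All SNI libraries lay below all sham libraries. Col18a1, the source of the fragment endostatin, was found at 1.26, 1.20 and 2.45 FPKM in sham, 1.09, 1.10 and 1.39 in SNI and 1.24, 1.44 and 1.01 in SNI+LDN193189, raised in sham replicate 3 alone.

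The last chains belong to small networks or stand outside the main classes. Col8a2, of the type VIII sheets under endothelium, was found at 0.703, 1.02 and 1.66 FPKM in sham, 0.615, 0.612 and 0.851 in SNI and 1.07, 0.843 and 0.663 in SNI+LDN193189, and its partner Col8a1 had a mean of 0.854. Col7a1, the anchoring fibril chain of skin, was found at 0.422, 0.284 and 0.422 FPKM in sham, 0.269, 0.277 and 0.341 in SNI and 0.239, 0.233 and 0.316 in SNI+LDN193189. The groups overlapped in both Col8a2 and Col7a1. Col26a1 was found at 2.78, 1.67 and 2.79 FPKM in sham, 1.67, 1.69 and 2.33 in SNI and 1.80, 1.68 and 1.73 in SNI+LDN193189, with sham replicate 2 level with the SNI groups. Col28a1 (chr6:7997808-8192617), a collagen known from the sheaths of glia in peripheral nerve, was found at 0.260, 0.634 and 1.68 FPKM in sham, 0.127, 0.191 and 0.219 in SNI and 0.479, 0.350 and 0.299 in SNI+LDN193189. All SNI libraries were below all sham libraries, and the SNI+LDN193189 libraries lay between 0.299 and 0.479, above all SNI libraries.

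SNI was compared with sham to ask what the injury changed. Most chains were lower in SNI, but none passed the threshold. By edgeR's quasi-likelihood test with Benjamini-Hochberg adjustment over 18245 genes, 0 of 42 members had an adjusted p under 0.05, and neither did any other gene (0%); DESeq2 called 1 member, Col6a2 (adjusted p = 0.0142), and 22 genes in all. The log2 fold change was negative in 35 members, against 49.9% of all genes, and positive in 7, against 50.1%, and its median was -0.34 against 0.00. At an unadjusted p under 0.05, 11 members were lower, against 3.31% of all genes, and 0 were higher, against 2.02%. All sham libraries lay above all SNI libraries in 10 members, against 5.18% of all genes, and below them in 0, against 4.12%. In bulk tissue fewer cells of a type and less RNA per cell cannot be told apart.

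By class the log2 fold change was negative in 9 of 11 fibrillar chains (median -0.76), 6 of 6 chains of type IV (-0.49), 4 of 6 of the beaded filament type VI (-0.24) and 6 of 9 fibril-associated chains (-0.07). It was negative in every tested chain of the small classes, namely the 2 multiplexins (-0.76), the 2 short-chain network members (-0.43), the 3 transmembrane chains (-0.33), the anchoring fibril chain (-0.34), and Col26a1 and Col28a1 outside these classes (-1.29). The smallest p was that of Col6a2, with a log2 fold change of -0.99 ± 0.22 (SE, unadjusted p = 0.000569 by edgeR), and with an adjusted p of 0.649 by edgeR's quasi-likelihood test it was not called. Col6a1 had a log2 fold change of -0.47 ± 0.14 (SE, unadjusted p = 0.00444 by edgeR). For Col28a1 the estimate was a log2 fold change of -2.24 ± 0.65 (SE, unadjusted p = 0.00953 by edgeR). In these 3 chains all sham libraries were the higher ones.

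The other chains with an unadjusted p under 0.05 followed. Col14a1 had a log2 fold change of -1.86 ± 0.72 (SE, unadjusted p = 0.0415 by edgeR). Col3a1 had a log2 fold change of -1.60 ± 0.58 (SE, unadjusted p = 0.0315 by edgeR). Col5a1 had a log2 fold change of -1.38 ± 0.51 (SE, unadjusted p = 0.0333 by edgeR). In these 3 chains sham replicate 3 was 3.30, 1.98 and 2.98 times the next library. Col5a3 had a log2 fold change of -1.09 ± 0.37 (SE, unadjusted p = 0.0234 by edgeR). Col15a1 had a log2 fold change of -1.08 ± 0.38 (SE, unadjusted p = 0.0254 by edgeR). Col4a1 had a log2 fold change of -0.93 ± 0.35 (SE, unadjusted p = 0.0346 by edgeR). Vessels, nerve sheaths and meninges all hold these basement membrane and fibril chains. Col8a2 had a log2 fold change of -0.69 ± 0.28 (SE, unadjusted p = 0.0308 by edgeR). Col24a1 had a log2 fold change of -0.53 ± 0.22 (SE, unadjusted p = 0.0301 by edgeR). The groups overlapped in Col8a2 and Col24a1 and did not overlap in the other 9 of these 11 chains.

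Markers of roots, meninges, skeletal muscle and sensory ganglia differed in the same direction. All 10 nerve root markers were lower in SNI, 9 of them with an unadjusted p under 0.05 by edgeR, the median log2 fold change being -2.44. All 11 tested fibroblast markers were lower, 2 of them at that level, with a median of -1.08. Of 12 muscle markers, high in sham replicate 1, 11 were lower and 10 at that level (median -6.85). All 7 tested ganglion markers, high in sham replicate 2, were lower and 1 at that level (median -1.76). With the nerve root level of each library as a covariate, the median log2 fold change of the collagen chains was 0.03. Then 20 members were lower and 22 higher, Col6a2 stood at -0.36 and Col28a1 at -0.21. The covariate itself differed with group, at -0.36, 0.83 and 2.16 in sham and -1.70, -0.77 and -0.32 in SNI (log2, centred over the 9 libraries). Group and root level therefore cannot be told apart by this fit. Without sham replicate 3 the median was -0.17, and 29 of 42 members were lower against 50.5% of 18525 genes. By edgeR 9 then had an unadjusted p under 0.05, against 4.05%. They were Col4a1, Col5a1, Col5a3, Col6a1, Col6a2, Col15a1 and Col28a1, and also Col2a1 and Col9a1. In Col2a1 and Col9a1 sham replicates 1 and 2 lay below all SNI libraries. Col3a1 and Col14a1 were not among the 9. Log2 fold changes were then -0.65 for Col6a2, -1.32 for Col28a1, -1.05 for Col3a1, -0.82 for Col14a1, -0.64 for Col5a1 and -0.49 for Col4a1. Without sham replicate 1, the library with the muscle markers and the fewest root markers of the sham group, Col6a2 (-1.21, adjusted p = 0.0126) and Col28a1 (-2.67, adjusted p = 0.0228) passed the threshold of edgeR's quasi-likelihood test. The endothelial markers, whose cells make type IV collagen, had a median of -0.07.

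SNI+LDN193189 was compared with SNI to ask what the compound changed after injury; the comparison shares the SNI libraries with the one above. Again 0 of 42 members had an adjusted p under 0.05 by edgeR's quasi-likelihood test, against 0.00548% of all genes, which is 1 gene, and DESeq2 called 0 members. The members were evenly divided, 22 higher, against 49.8% of all genes, and 20 lower, against 50.2%, the median log2 fold change being 0.04 against -0.001. With the nerve root covariate 9 members were higher and 33 lower, against 50.1% of all genes, and the median was -0.18. Of the members, 5 (Col4a1, Col5a2, Col5a3, Col12a1 and Col24a1) then had an unadjusted p under 0.05, against 4.14% of all genes, and 0 were called by edgeR. The 1 member with an unadjusted p under 0.05, against 2.19% of all genes for lower ones and 1.69% for higher ones, was Col6a4, with a log2 fold change of -1.13 ± 0.50 (SE, unadjusted p = 0.0417 by edgeR). The lowest Col6a4 library held 8 counts. Libraries did not overlap in 4 members. Col2a1 and Col4a2 were lower in all SNI+LDN193189 libraries (2 of 42, against 6.35% of all genes), and Col6a2 and Col28a1 were higher (2 of 42, against 5.02%). All 10 nerve root markers were higher as well, with a median log2 fold change of 1.09, as were 10 of 11 fibroblast markers, with a median of 0.52. For Col2a1 the groups stood at 0.983, 0.397 and 0.463 FPKM in SNI and 0.345, 0.287 and 0.298 in SNI+LDN193189, and for Col4a2 the closest values were 6.07 and 6.03.

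SNI+LDN193189 was compared with sham; this shares its libraries with both comparisons above. By edgeR's quasi-likelihood test 0 of 42 members had an adjusted p under 0.05, against 0.0164% of all genes, which is 3 genes; DESeq2 called 1 member, Col12a1 (adjusted p = 0.0372), and 73 genes in all. The log2 fold change was negative in 36 members, against 52.0% of all genes, and positive in 6, against 48.0%, with a median of -0.38 against -0.01. At an unadjusted p under 0.05, 10 members were lower, against 4.49% of all genes, and 0 were higher, against 4.07%. All sham libraries lay above all SNI+LDN193189 libraries in 6 members (Col4a1, Col4a2, Col6a1, Col6a4, Col12a1 and Col24a1), against 7.42% of all genes, and in 0 below, against 6.14%.

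The 3 smallest p here were those of Col12a1, a fibril-associated chain, Col6a1, of type VI, and Col24a1, a fibrillar chain. Col12a1 had a log2 fold change of -0.53 ± 0.14 (SE, unadjusted p = 0.00265 by edgeR), and its adjusted p was 0.399 by edgeR's quasi-likelihood test. Col6a1 had a log2 fold change of -0.49 ± 0.14 (SE, unadjusted p = 0.00316 by edgeR). Col24a1 had a log2 fold change of -0.75 ± 0.22 (SE, unadjusted p = 0.00437 by edgeR). In each of these 3 chains every library of the treated group was below every sham library. Col4a1 had a log2 fold change of -1.13 ± 0.35 (SE, unadjusted p = 0.0165 by edgeR). Col4a2 had a log2 fold change of -0.71 ± 0.27 (SE, unadjusted p = 0.0349 by edgeR). Col6a2 had a log2 fold change of -0.60 ± 0.21 (SE, unadjusted p = 0.0158 by edgeR). The type IV pair, the chains of endothelial and other basement membranes, was lower in all treated libraries than in all sham libraries. Col11a1 had a log2 fold change of -0.30 ± 0.10 (SE, unadjusted p = 0.0121 by edgeR). Col26a1 had a log2 fold change of -0.46 ± 0.18 (SE, unadjusted p = 0.0233 by edgeR). Col5a3 had a log2 fold change of -0.96 ± 0.37 (SE, unadjusted p = 0.0372 by edgeR). Each of these 3 chains had overlapping groups, as did Col6a2. Col7a1, the last member at this level, had a log2 fold change of -0.50 ± 0.22 (SE, unadjusted p = 0.036 by edgeR), also with overlapping groups.

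Without sham replicate 3 the median of the members in this comparison was -0.20, and Col4a1, Col4a2 and Col6a2 stood at -0.69, -0.33 and -0.25, whereas Col12a1 and Col24a1 stood at -0.36 and -0.58. With the nerve root covariate the median was -0.23, and 34 of 42 members were lower, against 50.1% of all genes. By edgeR 7 members then had an unadjusted p under 0.05, against 8.62% of all genes. Nerve root markers had a median of -1.28 and fibroblast markers of -0.42 here. Endothelial markers were lower in 8 of 10, with a median of -0.26, and 6 of them had an unadjusted p under 0.05; among them Cldn5, the tight junction protein of the blood barrier, stood at 23.7, 21.5 and 28.8 FPKM in sham and 16, 16 and 14.1 in SNI+LDN193189. The part of these cells in the collagen values was not tested. In the joint test of the 3 groups 0 of 42 members were called by edgeR and 1, Col6a2, by DESeq2, against 0.00548% of all genes by edgeR, and 8 had an unadjusted p under 0.05, against 5.94%.

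**Figure D5:**
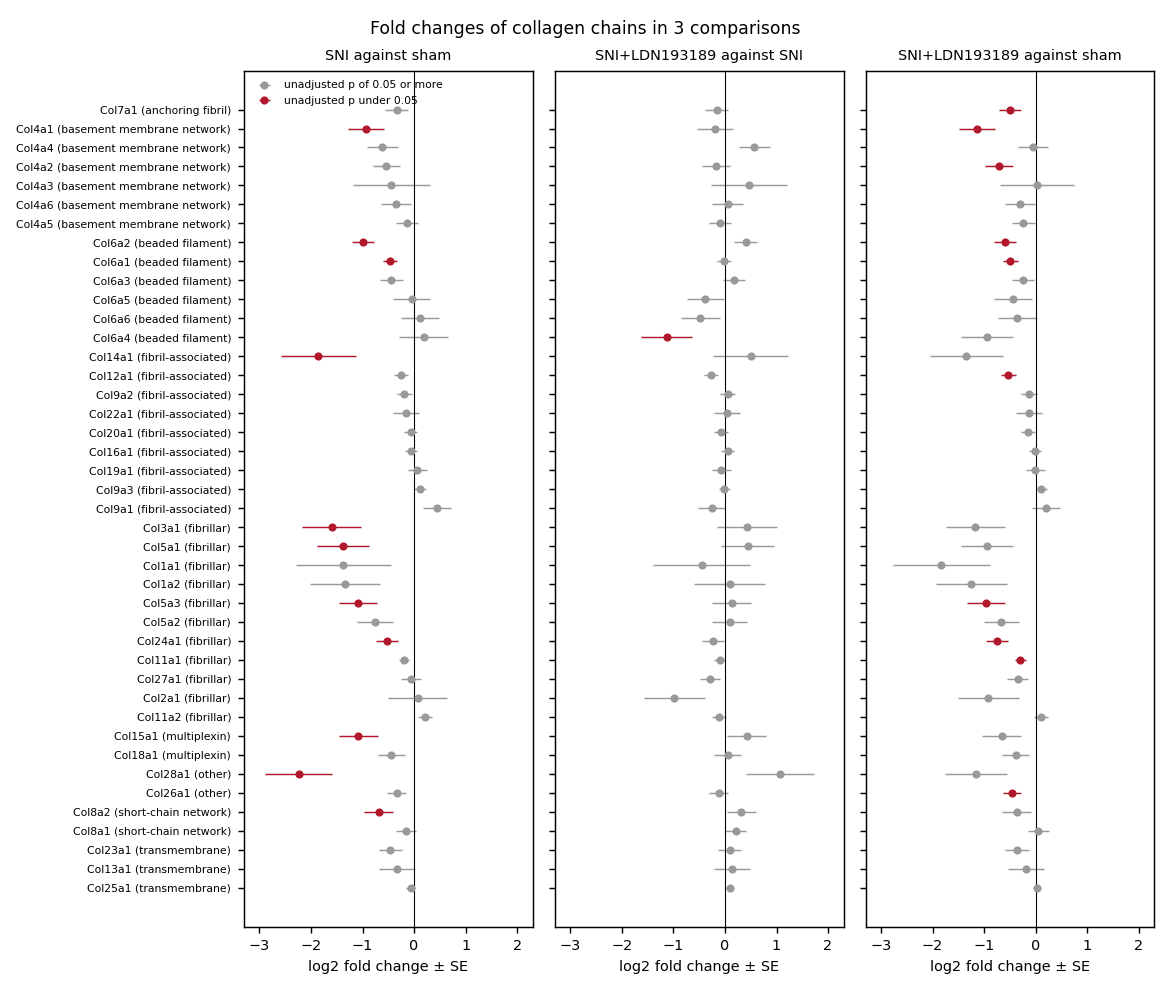
Log2 fold change with its standard error for the 42 tested collagen chains, grouped by structural class, in the 3 comparisons from edgeR; red points have an unadjusted p under 0.05 and none has an adjusted p under 0.05. In the left and right panels 35 and 36 points lie below 0, and in the middle panel 20.

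Genes that make, bind and break down collagen were read from 6 lists. In SNI against sham, where 49.9% of all genes were lower and 5.33% had an unadjusted p under 0.05, 27 of 34 genes of collagen synthesis and crosslinking were lower and 4 had such a p. Lox, the oxidase that starts collagen crosslinking, stood at 1.53, 4.78 and 6.94 FPKM in sham and 0.675, 0.820 and 0.996 in SNI, with a log2 fold change of -2.40 ± 0.56. Tgm2, a transglutaminase that crosslinks matrix proteins, had -0.66 ± 0.19, and Crtap, part of the prolyl 3-hydroxylase complex, had -0.54 ± 0.21. All 21 tested fibril partners were lower, 7 of them with an unadjusted p under 0.05, led by Fbln2 (-0.67 ± 0.17), Postn (-0.93 ± 0.25) and Lum (-1.56 ± 0.45). Of 19 basement membrane partners 15 were lower, and the 3 at that level were Smoc2 (-2.08 ± 0.56), Dag1 (-0.52 ± 0.20), the gene of dystroglycan, and Hspg2 (-1.31 ± 0.53), the gene of perlecan. Of 13 tested receptors, the tyrosine kinases Ddr2 (-0.59 ± 0.21) and Ddr1 (0.14 ± 0.06) had an unadjusted p under 0.05. No gene of these lists had an adjusted p under 0.05 in this comparison, and the lists share Dcn, Lum, Ogn and Fmod with the fibroblast markers.

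Among regulators of collagen transcription, 5 of 19 had an unadjusted p under 0.05 in SNI against sham, including Yap1 (-0.49 ± 0.13), Creb3l1 (-1.09 ± 0.31), which switches on collagen genes during secretory stress, and Smad7 (0.32 ± 0.10), an inhibitor of TGF-beta signalling. In SNI+LDN193189 against sham, where 8.56% of all genes were at that level, the regulators there numbered 6 of 19, with Tgfbr1 at 0.21 ± 0.07, Creb3l1 at -0.98 ± 0.31 and Smad7 at 0.27 ± 0.10. Of the synthesis genes, Plod3, a lysyl hydroxylase, had -0.22 ± 0.07, Pcolce2, an enhancer of procollagen trimming, 0.31 ± 0.12 and Tll2, a procollagen proteinase, -0.39 ± 0.15. In that comparison Adgrg1 was the 1 receptor at that level (-0.15 ± 0.07), Lama3 (-0.51 ± 0.20) and Lama1 (-0.47 ± 0.18) were the basement membrane partners, and Fbn2 (-0.67 ± 0.21) and Postn (-0.64 ± 0.25) the fibril partners.

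Breakdown held the 1 gene of these lists that passed the threshold. Of its 19 genes 13 were tested, and Timp1, Timp3 and Timp4 were listed at 0 in all 9 libraries. Mmp14, a membrane-bound collagenase that also activates Mmp2, stood at 9.58, 11.2 and 10.4 FPKM in sham, 8.77, 8.84 and 7.63 in SNI and 5.55, 4.37 and 4.86 in SNI+LDN193189. The 3 groups did not overlap. It was lower in SNI+LDN193189 than in SNI by a log2 fold change of -0.77 ± 0.10 (adjusted p = 0.0194, edgeR's quasi-likelihood test), and lower than in sham by -1.06 ± 0.10 (adjusted p = 0.000274). The second of these calls held under all 16 alternatives, with an adjusted p of 1.64e-18 to 0.014. The first was lost under 7 of 16, with limma (adjusted p = 0.281), the replicate block (0.073), the nerve root covariate (0.0744), and without SNI replicate 1 (0.28), SNI replicate 2 (0.271), SNI+LDN193189 replicate 2 (0.121) or SNI+LDN193189 replicate 3 (0.28), while its log2 fold change stayed between -0.86 and -0.69. In SNI against sham the breakdown genes with an unadjusted p under 0.05 were Mmp14 (-0.29 ± 0.10), Mmp2 (-0.50 ± 0.17) and Mmp16 (0.31 ± 0.11). Between SNI+LDN193189 and SNI, where 3.88% of all genes had an unadjusted p under 0.05, Tll2 (-0.47 ± 0.15), Pcolce2 (0.36 ± 0.12), P3h4 (0.23 ± 0.11) and Ddr1 (-0.12 ± 0.06) had an unadjusted p under 0.05 and none of these was called. Pepd, a dipeptidase that releases proline from collagen fragments, had 0.21 ± 0.08 in SNI+LDN193189 against sham.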

How the data were processed

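The authors deposited 2 tables with 1 column per library, whole-number counts and FPKM; per the file headers the columns are L, S and N with a number. From these letters alone, L columns were assigned to LDN193189, S columns to sham and, by elimination, N columns to SNI; were S to mean SNI, these groups would swap. The deposited FPKM equalled the count over the library total and 1 fixed length per gene (24535 of 24535 genes with 2 or more counts above 0, tolerance 1e-09). Of counts above 0, 70.7 to 71.8% were even. Build mm10 is named per the submitters' processing notes; aligner, counter, strand setting and annotation are not given in the sources used here.

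Counts were tested with edgeR 4.0.16 in R 4.3.3 (TMM factors 0.984 to 1.02, filterByExpr leaving 18245 genes of 40879, robust quasi-likelihood F tests, all 3 groups fitted together, leaving 6 residual degrees of freedom, biological coefficient of variation 0.132, Benjamini-Hochberg over all genes, called under 0.05). SE is the log2 fold change over the root of F. The fit was tested on simulated data. Alternatives were DESeq2 1.42.0, other scalings, no filter, limma 3.58.1 on log2(FPKM + 0.1), a replicate block, a nerve root covariate (mean log2 CPM of the 10 markers) and leaving out each library. No pair of columns was identical. Descriptive values came from Python 3.11.15 (numpy 2.4.6, pandas 2.3.3). Values in every library were given for members with a mean of at least 1 FPKM or an unadjusted p under 0.05 by edgeR in a comparison or the joint test. Fold changes were given only for the latter. Col2a1 and Col9a1 met neither condition and were given in every library as exceptions. Other members were named with a mean, a range or in lists. Up to 3 genes with a fold change were named per pathway list and comparison. The members and lists were chosen with earlier results of these data known.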

Additional observations from a re-analysis of the deposited data

How the results depend on the processing

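By edgeR no collagen chain was called in any comparison under RLE scaling, library totals only or no low-count filter. The same held for edgeR with the replicate block or the nerve root covariate, and for limma on log2 FPKM. DESeq2 called 1 chain in SNI against sham (Col6a2, adjusted p = 0.0142), 1 in SNI+LDN193189 against sham (Col12a1, adjusted p = 0.0372) and 1 in the joint test (Col6a2, adjusted p = 0.0106). Leaving out 1 library gave 0 to 2 called chains in SNI against sham and 0 to 2 in the joint test, 2 without sham replicate 1 (Col6a2 and Col28a1), and 0 in the other 2 comparisons. The number of members with an unadjusted p under 0.05 by edgeR in SNI against sham also moved. It was 3 without SNI replicate 1, against 4.06% of all genes, and 4 without SNI replicate 2, against 4.13%. Without sham replicate 2 it was 18, against 9.0% of all genes.

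Genes called over the whole table moved more. In SNI against sham they numbered 22 with DESeq2, 13 with the nerve root covariate and 0 to 38 without 1 library. In SNI+LDN193189 against SNI they numbered 6 with DESeq2, 2 without a filter, 0 with limma, 0 with the replicate block, 0 with the covariate and 0 to 2 without 1 library; Mmp14, the 1 gene called there, was lost under 7 of 16 alternatives. In SNI+LDN193189 against sham they numbered 73 with DESeq2, 30 without a filter, 1 with limma, 13 with the covariate and 1 to 17 without 1 library. In the joint test they numbered 75 with DESeq2, 25 without a filter, 5 with the replicate block, 19 with the covariate and 1 to 19 without 1 library. The cause was not tested.

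With the nerve root covariate the median log2 fold change of the collagen chains in SNI against sham was 0.028. Then 22 members were higher and 20 lower, against 7 and 35 without the covariate. Among those that turned were Col8a2 (0.213) and Col14a1 (0.135), from the 11 chains with an unadjusted p under 0.05 by edgeR without it. With it the 1 member at that level was Col9a1, against 4.61% of all genes. In SNI+LDN193189 against SNI the covariate gave a median of -0.176. As the covariate differed with group, these fits cannot tell group and root level apart. Without 1 library the median in SNI against sham ran from -0.501 to -0.172. With the replicate block it was -0.332. Deviations of same-numbered libraries correlated at -0.109 to 0.144, and those of differently numbered libraries at -0.18 to 0.132. The labels do not say what the numbers share, and they were not taken as pairs. These correlations cannot show whether libraries of one number shared a day or batch. By summed counts, which weigh long transcripts more, type IV held 13.6, 13.5 and 12.4% in sham, SNI and SNI+LDN193189 against 12.2, 12.5 and 11.3% by FPKM, type IX 3.51, 5.02 and 5.07% against 7.44, 10.6 and 10.7%, type XII 3.44, 4.13 and 3.45% against 1.54, 1.88 and 1.55%, and type XIX 2.15, 3.05 and 2.96% against 1.03, 1.47 and 1.42%. Depth limits Col4a3 and Col17a1, with 2 to 22 and 2 to 8 counts a library.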

Other observations

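Col9a1, a type IX chain, stood at 0.362, 0.398 and 0.798 FPKM in sham, 0.712, 0.665 and 0.734 in SNI and 0.588, 0.491 and 0.679 in SNI+LDN193189. It was named after its values were seen. The 2 sham libraries other than sham replicate 3 lay below all libraries of the other groups, and sham replicate 3 lay above them. The ratio of Col9a1 to Col9a2 was 0.113, 0.0986 and 0.177 in sham and between 0.145 and 0.219 in the other 6 libraries.

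Counts of members at their lowest value also fell unevenly over the libraries. SNI replicate 1 was lowest in 12 of 42 members (28.6%), against 12.7% of all genes tested, and SNI replicate 2 in 9 (21.4%), against 8.69%. Sham replicate 3 was lowest in 0, against 11.5%. Nerve root markers summed to 59.2 FPKM in SNI replicate 1, the lowest of the 9 libraries, and to 153 in SNI replicate 2, the next lowest.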
